A study of Bos taurus with 27 samples.

Results

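The T cell receptor complex, its co-receptors and signalling proteins, and the surface and transcription factor genes that mark T cells were followed here in cattle lymph nodes during infestation with Rhipicephalus microplus, the cattle tick. The 30 genes were listed by name, from the CD3 chains to GIMAP8, and every probe carrying one of those symbols was taken. All 30 were measured, out of 14495 named genes on the array, through 64 probes. Of the 30, 9 had 1 probe and 21 had several, whose values were averaged.

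Biopsies came from the superficial cervical lymph node, a node of the shoulder and lower neck, and each was set on a 2-colour array against the same pool of cattle superficial cervical lymph nodes. The 27 arrays form 9 groups of 3 biological replicates: Bonsmara, Brahman and Holstein Friesian cattle, each at baseline with no tick attached, with feeding larvae, and with feeding adult ticks. Bonsmara cattle are a South African composite, Brahman cattle are zebu, and Holstein Friesian cattle are taurine dairy animals. The labels give neither age nor sex, and whether the same animals were biopsied at each stage is not stated in them. No uninfested cattle were sampled beside the later stages, so the passage of time and tick feeding cannot be told apart. The deposited values are log ratios. Base 2, with the sample over the pool, is likely from the dyes in the labels (sample Cy5, pool Cy3) and from the convention of limma, the package the submitters name; were it the other way, every rise and fall below would change places. A value of 1 is thus likely a doubling over the pool, and a gene's values are comparable across arrays but not with another gene's level.

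T cells recognise antigen through a receptor whose variable chains are carried by the CD3 chains and by CD247, the zeta chain. The co-receptors CD4 and CD8 bind class II and class I molecules of the antigen-presenting cell and bring in the kinase LCK, which marks the CD3 and zeta tails so that ZAP70 docks there and hands the signal to the scaffolds LAT and LCP2. In a lymph node, naive T cells enter under the guidance of CCR7 and survive on signals through IL7R, while CD28, ICOS and CD40LG serve the exchange with antigen-presenting cells and B cells.

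Arrays were centred and alike in scale only within limits, with medians between -0.0065 and 0.0062 and standard deviations between 0.20 and 0.52. The breed labels were checked on the 50 features that best separated Brahman or Holstein Friesian from Bonsmara arrays, each array left out in its turn. Brahman against Holstein Friesian did not enter that choice. On these features 2 of 27 arrays lay nearer another breed than their own. Holstein Friesian larva replicate 3 lay at a root mean square distance of 0.35 from Brahman and 1.25 from Holstein Friesian arrays. Bonsmara larva replicate 3 lay at 0.61 from Holstein Friesian and 0.94 from Bonsmara arrays. The counts of genes that passed are therefore also given without this pair, while counts at an unadjusted p and of groups that did not overlap are for all 27 arrays. Brahman larva replicate 1 stood lowest for the T cell genes, with all 30 below 0 and a median of -0.53.

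The first comparison asked how the node's T cell genes differed while larvae fed. Averaged over the 3 breeds, 8 of the 30 genes fell with larvae against baseline and 0 rose. They were CD7, CD8A, SH2D1A, ZAP70, CD3G, LCK, LCP2 and PRKCQ, with differences between -0.79 and -0.41 log2 units. Over the whole array, 1.21% of 28927 features passed the same threshold in either direction, and 0.529% passed it as lower. The median difference of the 30 genes was -0.28, against -0.02 for all features, and 26 of the 30 were below 0. At an unadjusted p under 0.05 there were 18 lower genes, where 6.58% of all features were lower. In a bulk biopsy fewer T cells and less RNA per T cell cannot be told apart. The test was limma's moderated statistic in 1 fit of all 27 arrays, two-sided, with Benjamini-Hochberg adjustment over all features and a threshold of 0.05. Without the pair of larva arrays nearer another breed, 11 genes fell, the 8 and also CD3D, FYN and GIMAP8, and the median was -0.30. The count of features that passed in either direction also rose there, from 351 to 480 of 28927.

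**Figure D1:**
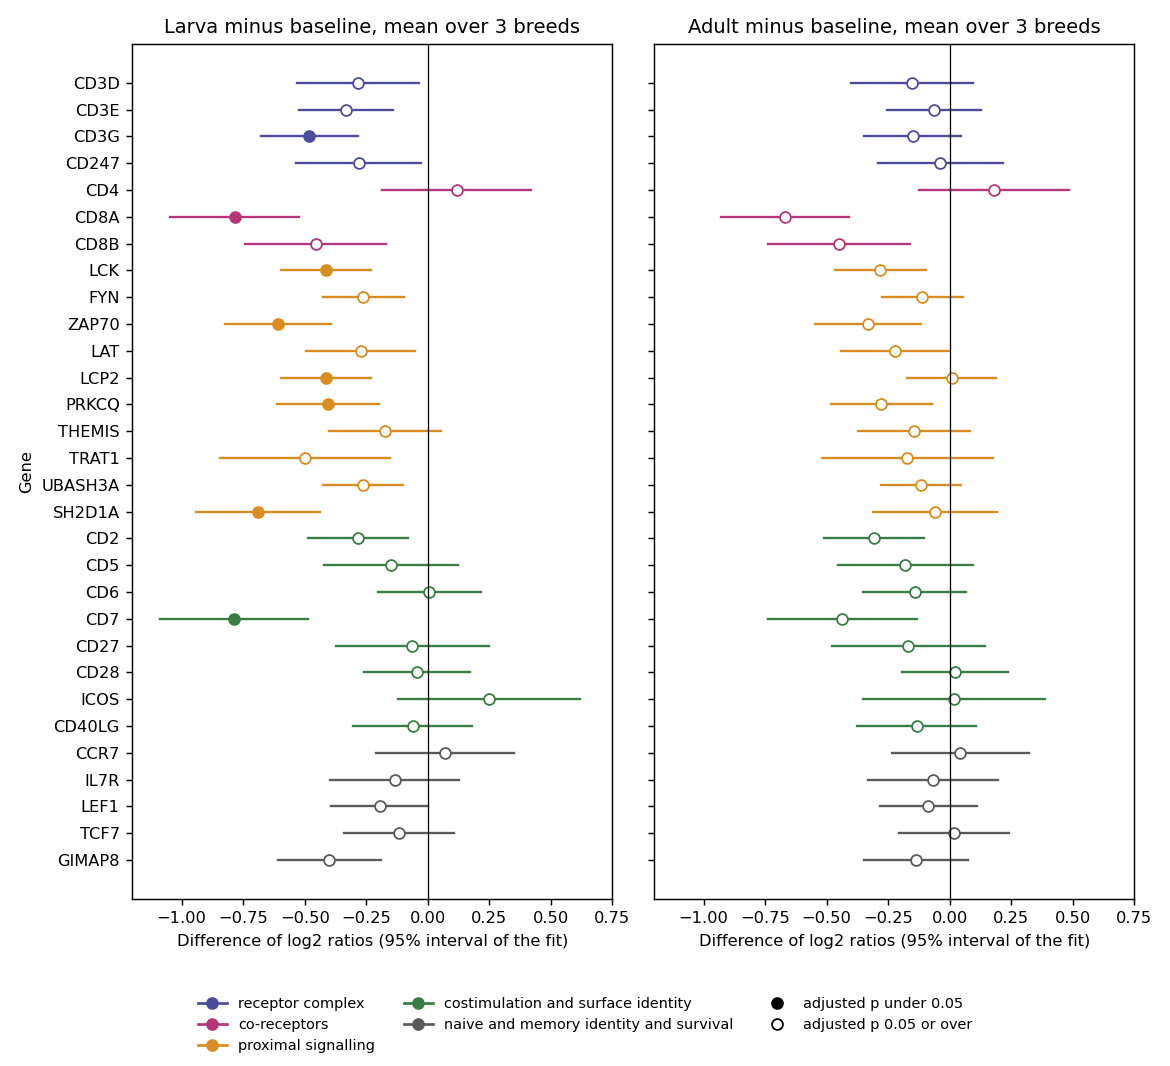
Difference of log2 ratios for each of the 30 T cell genes (down the page, coloured by role), with the mean over 3 breeds of larva minus baseline on the left and of adult minus baseline on the right. Points are the fitted differences, lines their 95% intervals without adjustment over features, and filled points passed an adjusted p of 0.05. On the left 8 points are filled and 26 lie below 0; on the right 0 are filled and 24 lie below 0.

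Among the 4 chains of the receptor complex, 1 fell with larvae and the median difference was -0.31. The gene that fell was CD3G, the gamma chain of CD3. In Bonsmara CD3G read 0.50, 0.69 and 0.44 at baseline, 0.03, -0.30 and -0.03 with larvae and 0.46, 0.29 and 0.73 with adults. In Brahman CD3G read 0.0034, 0.01 and 0.06 at baseline, -0.76, -0.21 and -0.19 with larvae and -0.44, -0.24 and -0.14 with adults. In Holstein Friesian CD3G read 0.43, 0.33 and 0.31 at baseline, 0.24, 0.02 and -0.36 with larvae and 0.45, 0.31 and 0.0014 with adults. In each of the 3 breeds all larva arrays lay below all baseline arrays, and in Bonsmara all adult arrays were back above all larva arrays. The larva minus baseline difference of CD3G was -0.48 (SE 0.09, adjusted p = 0.0115), and its 3 probes gave -0.49, -0.54 and -0.41. The adjusted p was 0.11 when arrays were scaled to the same interquartile range.

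CD3E, the epsilon chain, is the usual marker of T cells. In Bonsmara CD3E read 0.04, 0.32 and 0.18 at baseline, -0.04, -0.33 and -0.23 with larvae and 0.19, 0.19 and 0.27 with adults. In Brahman CD3E read -0.05, 0.31 and -0.05 at baseline, -0.74, -0.21 and -0.27 with larvae and -0.44, -0.16 and -0.21 with adults. In Holstein Friesian CD3E read -0.14, 0.24 and -0.13 at baseline, -0.06, -0.20 and -0.21 with larvae and 0.48, -0.06 and -0.10 with adults. Larva arrays lay below baseline arrays without overlap in Bonsmara and Brahman nodes and overlapped them in Holstein Friesian nodes. Its larva minus baseline difference was -0.33 (SE 0.09) with an adjusted p of 0.0861, which missed the threshold. For CD247 the difference was -0.28 (95% interval -0.54 to -0.03, adjusted p = 0.345), and for the delta chain CD3D -0.28 (95% interval -0.53 to -0.03, adjusted p = 0.324). The 3 probes of CD3D did not move alike: they gave -0.43, 0.06 and -0.48, and their pairwise correlations over the 27 arrays ran from -0.04 to 0.84. With the median of its probes in place of the mean, CD3D fell by 0.42 (adjusted p = 0.0243), and without Holstein Friesian larva replicate 3, where it read 0.72, it fell by 0.40 (adjusted p = 0.0164). The other 3 chains each held a negative estimate, with 95% intervals whose upper ends lay between -0.14 and -0.03. The intervals are for single genes and are not adjusted over the features. With probes averaged and all 27 arrays in the fit, none of the 3 passed the adjusted threshold.

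The co-receptor genes moved by unequal amounts. CD8A encodes the alpha chain that all CD8 cells carry. In Bonsmara CD8A read 0.81, 1.42 and 0.64 at baseline, -0.24, -0.25 and -0.12 with larvae and -0.30, 0.05 and 0.04 with adults. In Brahman CD8A read 0.50, 0.58 and 0.38 at baseline, -0.73, -0.29 and 0.22 with larvae and -0.41, -0.44 and 0.13 with adults. In Holstein Friesian CD8A read 0.05, -0.12 and -0.22 at baseline, -0.27, -0.75 and -0.57 with larvae and -0.40, -0.02 and -0.61 with adults. Every larva array lay below every baseline array of its breed in all 3 breeds, and so did the adult arrays in Bonsmara and Brahman nodes. CD8A fell by 0.78 with larvae against baseline (SE 0.13, adjusted p = 0.00241). Its difference with adults against baseline was -0.67 (SE 0.13), where the adjusted p of 0.0572 missed the threshold. CD8B, the beta chain found with it on conventional cytotoxic T cells, had a larva minus baseline difference of -0.46 (SE 0.14, adjusted p = 0.126) and passed without Brahman larva replicate 3, at -0.59 (adjusted p = 0.00562).

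CD4, the co-receptor of helper T cells, had a positive estimate that did not pass. In Bonsmara CD4 read -0.58, -0.52 and -0.53 at baseline, -0.22, -0.36 and 0.13 with larvae and -0.05, -0.15 and -0.37 with adults. In Brahman CD4 read -0.72, 0.10 and -0.54 at baseline, -0.90, 0.34 and -0.19 with larvae and -0.34, 0.13 and -0.63 with adults. In Holstein Friesian CD4 read -0.30, 0.35 and -0.20 at baseline, -0.17, -0.12 and -0.40 with larvae and 0.17, -0.17 and 0.09 with adults. In Bonsmara nodes every larva and every adult array lay above the baseline arrays, and in the other breeds the stages overlapped. The mean difference with larvae was 0.12 (95% interval -0.19 to 0.42, adjusted p = 0.775) and with adults 0.18 (95% interval -0.12 to 0.48, adjusted p = 0.647).

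The gap between the CD8 and CD4 genes within an array was tested directly. CD8A minus CD4 averaged -0.12 ± 0.34 over the 9 larva arrays and 0.78 ± 0.76 over the 9 baseline arrays (SD). The difference was -0.90 (exact permutation test with stages permuted within breed, two-sided p = 0.002, adjusted over 6 such tests 0.012). It was -1.56 in Bonsmara, -0.89 in Brahman and -0.25 in Holstein Friesian nodes. With adults the gap averaged -0.07 ± 0.50, which differed from baseline by -0.85 (exact permutation p = 0.00425, adjusted p = 0.0125). Adults and larvae differed by 0.05 (exact permutation p = 0.785, adjusted p = 0.791). CD8B minus CD4 averaged 0.07 ± 0.44 with larvae and 0.01 ± 0.47 with adults, against 0.65 ± 0.47 at baseline. It differed from baseline by -0.57 with larvae and -0.63 with adults (exact permutation, adjusted p = 0.0206 and 0.0125), while the larva value missed the threshold when arrays were scaled to the same spread (-0.41, adjusted p = 0.125), after quantile normalization (-0.40, adjusted p = 0.132) or without Brahman baseline replicate 1 (-0.52, adjusted p = 0.0562). The design allows a p of 0.00025 at the smallest. Without the larva arrays nearer another breed the larva differences were -0.89 for CD8A and -0.59 for CD8B (exact permutation, adjusted p = 0.0125 and 0.021). CD8A and CD8B also mark some cells that are not conventional cytotoxic T cells, and their share here was not tested.

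**Figure D2:**
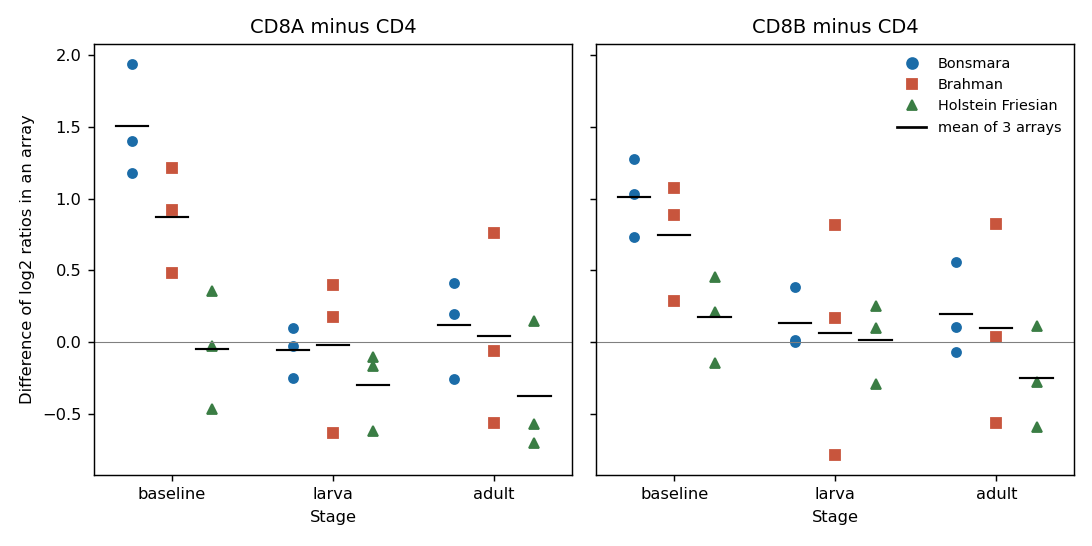
CD8A minus CD4 (left) and CD8B minus CD4 (right) within each array, in log2 units, by stage; points are arrays coloured by breed and bars the means of 3 arrays. The highest points of the left panel are a pair of Bonsmara baseline arrays at 1.94 and 1.40, followed by a Brahman baseline array at 1.22 and the other Bonsmara baseline array at 1.18, and the 9 larva arrays there lie between -0.63 and 0.40.

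The proximal signalling genes held most of the genes that fell: 5 of 10 with larvae, with a median difference of -0.41 and all 10 below 0. LCK, the kinase carried by the co-receptors, was the first of them in the order of the pathway. In Bonsmara LCK read 0.04, 0.25 and 0.12 at baseline, -0.01, -0.33 and -0.33 with larvae and 0.19, -0.06 and 0.0042 with adults. In Brahman LCK read 0.34, 0.36 and -0.31 at baseline, -0.42, -0.09 and -0.35 with larvae and -0.27, -0.17 and -0.45 with adults. In Holstein Friesian LCK read -0.01, 0.31 and 0.08 at baseline, -0.51, -0.34 and -0.16 with larvae and -0.23, -0.16 and -0.21 with adults. The larva arrays lay below the baseline arrays in Bonsmara and Holstein Friesian nodes and overlapped them in Brahman nodes, where baseline replicate 3 read -0.31. LCK fell by 0.41 (SE 0.09, adjusted p = 0.0197). Without Holstein Friesian larva replicate 1 its difference was -0.39 and the adjusted p 0.0529, and the call was also lost in a fit of the larva and baseline arrays alone and with the median of its 5 probes.

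ZAP70 is the kinase that docks on the marked receptor tails. In Bonsmara ZAP70 read 0.62, 0.60 and 0.85 at baseline, -0.12, -0.02 and 0.10 with larvae and -0.0012, 0.40 and 0.12 with adults. In Brahman ZAP70 read 0.39, 0.62 and 0.36 at baseline, -0.14, -0.66 and -0.07 with larvae and 0.30, 0.07 and -0.02 with adults. In Holstein Friesian ZAP70 read 0.38, 0.23 and -0.19 at baseline, -0.47, -0.42 and 0.20 with larvae and -0.06, 0.03 and 0.06 with adults. Larva arrays lay below baseline arrays without overlap in Bonsmara and Brahman nodes, and Holstein Friesian larva replicate 3, at 0.20, stood apart from the other two of its group. ZAP70 fell by 0.61 (SE 0.10, adjusted p = 0.00352), and by 0.70 (adjusted p = 0.00128) without the pair of arrays nearer another breed.

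LCP2, also called SLP-76, is the scaffold that ZAP70 phosphorylates. In Bonsmara LCP2 read 0.51, 0.64 and 0.44 at baseline, -0.19, -0.22 and 0.11 with larvae and 0.17, 0.25 and 0.52 with adults. In Brahman LCP2 read 0.02, 0.01 and 0.20 at baseline, -0.68, -0.16 and -0.03 with larvae and -0.02, 0.20 and 0.50 with adults. In Holstein Friesian LCP2 read -0.03, 0.09 and 0.06 at baseline, -0.36, -0.17 and -0.11 with larvae and 0.26, 0.08 and 0.05 with adults. The larva arrays lay below both the baseline and the adult arrays in every breed, with no overlap. LCP2 fell by 0.41 with larvae against baseline (SE 0.09, adjusted p = 0.0184). Of its 4 probes, the least alike pair correlated at 0.11 over the 27 arrays.

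PRKCQ, protein kinase C theta, links the receptor to NF-kappa-B. In Bonsmara PRKCQ read 0.85, 1.01 and 0.95 at baseline, 0.05, -0.27 and 0.25 with larvae and 0.36, 0.18 and 0.30 with adults. In Brahman PRKCQ read -0.11, 0.68 and 0.14 at baseline, -0.12, -0.23 and 0.16 with larvae and 0.10, 0.10 and -0.06 with adults. In Holstein Friesian PRKCQ read 0.44, 0.06 and 0.31 at baseline, 0.41, 0.47 and -0.04 with larvae and 0.38, 0.24 and 0.22 with adults. In Bonsmara nodes the 3 baseline arrays, between 0.85 and 1.01, stood above all larva and adult arrays, which overlapped each other, and in the other breeds the stages overlapped. Its mean difference was -0.41 (SE 0.10, adjusted p = 0.044), with the same sign in 2 of 3 breeds. That call was lost when any 1 of 21 of the 27 arrays was left out, where the difference ran from -0.46 to -0.33 and the adjusted p reached 0.104 over all 27 omissions. The call also held in only 3 of 9 other settings of the limma fit, where the adjusted p reached 0.141.

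SH2D1A, or SAP, is an adaptor of the SLAM family of receptors in T cells and natural killer cells. In Bonsmara SH2D1A read 0.68, 1.07 and 0.36 at baseline, -0.10, -0.59 and -0.61 with larvae and 0.92, 0.28 and 0.56 with adults. In Brahman SH2D1A read -0.15, 0.37 and -0.23 at baseline, -0.71, -0.40 and -0.90 with larvae and -0.15, 0.03 and -0.06 with adults. In Holstein Friesian SH2D1A read -0.16, -0.27 and 0.05 at baseline, -0.75, -0.22 and -0.22 with larvae and 0.04, -0.11 and -0.34 with adults. The larva arrays lay below baseline and adult arrays without overlap in Bonsmara and Brahman nodes, while in Holstein Friesian nodes the stages overlapped. SH2D1A fell by 0.69 with larvae against baseline (SE 0.12, adjusted p = 0.00437).

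The other 5 signalling genes did not pass the threshold. TRAT1, an adaptor attached to the receptor complex, had a difference of -0.50 (95% interval -0.85 to -0.15, adjusted p = 0.178). Its Brahman baseline arrays were far apart, at 0.55, 1.04 and -0.53, and without the third of them the difference was -0.65 (adjusted p = 0.0157). The scaffold LAT had -0.27 (adjusted p = 0.274), the kinase FYN -0.26 (adjusted p = 0.122) and UBASH3A, a regulator that dampens receptor signalling, -0.26 (adjusted p = 0.112). The least alike probe pairs of LAT and FYN correlated at 0.06 and 0.16 over the arrays. FYN fell by 0.31 (adjusted p = 0.0314) when Holstein Friesian larva replicate 3 was left out. THEMIS, which tunes receptor signals during T cell development, had the smallest difference of the 10, -0.17 (95% interval -0.40 to 0.05, adjusted p = 0.54).

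**Figure D3:**
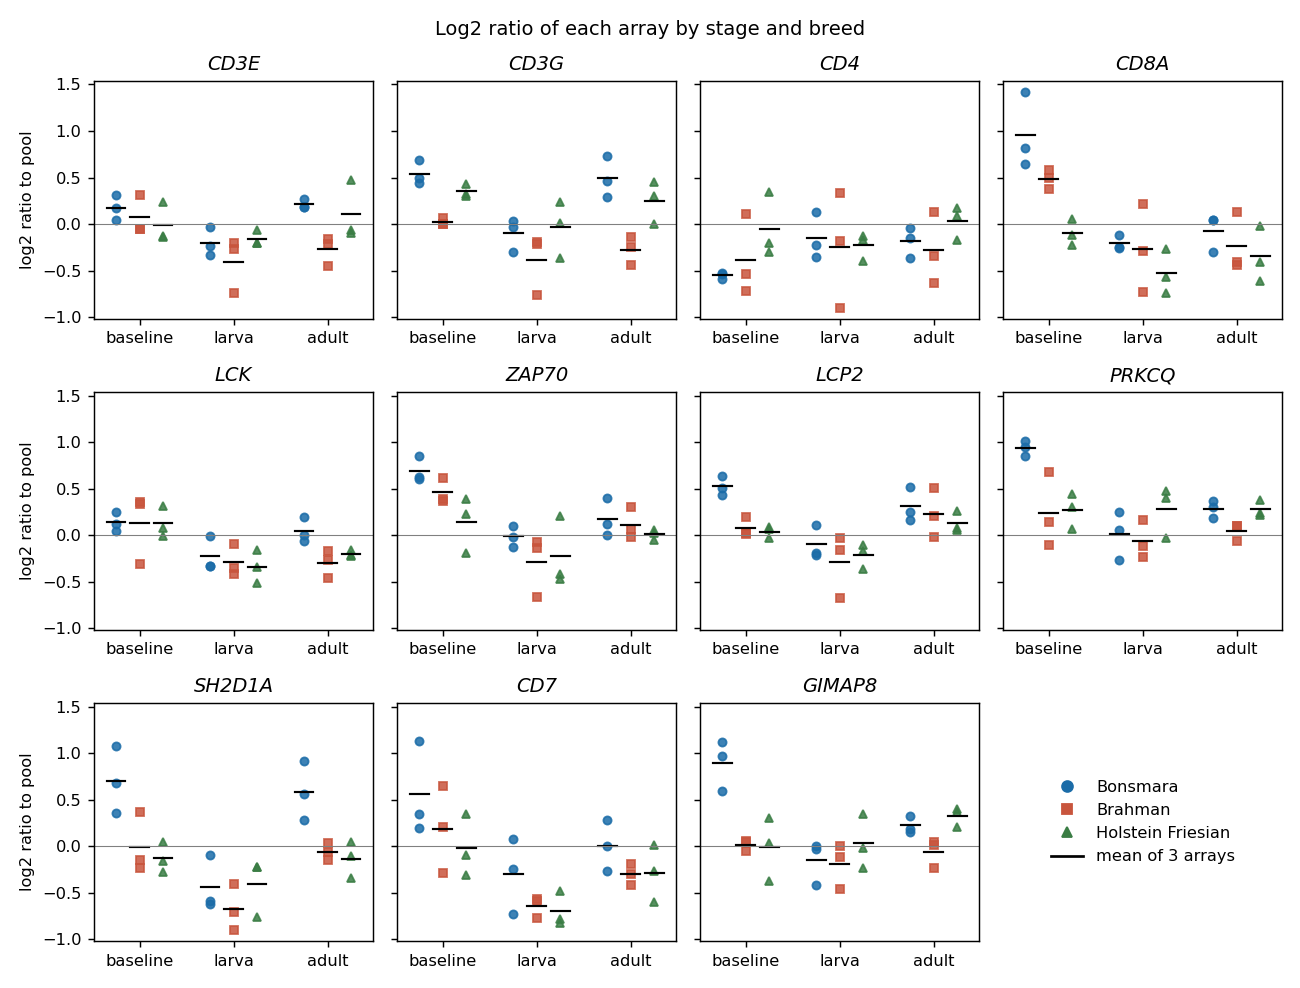
Log2 ratio to the pool of every array for 11 T cell genes, by stage and breed, with bars for the means of 3 arrays. Larva points lie under the baseline points of the same breed in CD3G, CD8A, LCP2 and CD7, while CD4 shows no such step and GIMAP8 shows it in Bonsmara.

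Of the 8 costimulatory and surface identity genes 1 fell with larvae, and the median difference was -0.06. The gene was CD7, an immunoglobulin family protein on T cells and natural killer cells. In Bonsmara CD7 read 0.19, 1.13 and 0.35 at baseline, 0.08, -0.24 and -0.73 with larvae and 0.28, -0.27 and 0.0047 with adults. In Brahman CD7 read 0.21, 0.64 and -0.28 at baseline, -0.77, -0.57 and -0.59 with larvae and -0.30, -0.42 and -0.19 with adults. In Holstein Friesian CD7 read -0.09, 0.35 and -0.31 at baseline, -0.83, -0.78 and -0.48 with larvae and -0.27, 0.01 and -0.60 with adults. Larva arrays lay below baseline arrays in each of the 3 breeds without overlap, although the baseline arrays of each breed were themselves widely spread. CD7 fell by 0.79 (SE 0.15, adjusted p = 0.00664), the largest difference among the 30 genes.

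The other surface genes gave smaller or opposite estimates. The adhesion receptor CD2 had -0.28 (95% interval -0.49 to -0.08, adjusted p = 0.193). The related receptors CD5 and CD6, which restrain receptor signalling, had -0.15 (95% interval -0.42 to 0.12) and 0.01 (95% interval -0.20 to 0.21). The CD6 value averages 2 probes of opposite sign, at 0.21 and -0.20, which correlated at 0.37 over the arrays. Those of CD5 gave -0.03 and -0.27 and correlated at 0.38. Intervals for the costimulatory receptors CD27 and CD28 were -0.37 to 0.25 and -0.26 to 0.17. CD40LG, the ligand with which helper T cells signal to B cells, had -0.06 (95% interval -0.30 to 0.18), and ICOS, a costimulatory receptor of activated and follicular helper T cells, had 0.25 (95% interval -0.12 to 0.62, adjusted p = 0.592). ICOS was the highest estimate of the 30, and its larva arrays ran from -0.18 to 1.12 around a median of 0.24, against -0.44 to 0.32 around 0.08 at baseline, so the groups overlapped.

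None of the 5 genes of naive and memory identity and survival passed, and their median difference was -0.13; 1 of the 5 was under an unadjusted p of 0.05. GIMAP8, a GTPase of the family that supports lymphocyte survival, came nearest. In Bonsmara GIMAP8 read 1.12, 0.97 and 0.60 at baseline, 0.01, -0.41 and -0.03 with larvae and 0.19, 0.16 and 0.33 with adults. In Brahman GIMAP8 read 0.05, -0.05 and 0.05 at baseline, -0.46, 0.01 and -0.11 with larvae and 0.01, -0.23 and 0.05 with adults. In Holstein Friesian GIMAP8 read 0.04, 0.31 and -0.37 at baseline, -0.02, -0.23 and 0.35 with larvae and 0.21, 0.41 and 0.37 with adults. In Bonsmara nodes the arrays ran in the order larva, adult, baseline with no overlap, and in the other breeds the baseline and larva arrays overlapped. The mean difference of GIMAP8 was -0.40 (SE 0.10, adjusted p = 0.0534), and it passed without Bonsmara baseline replicate 3 (-0.45, adjusted p = 0.0307), Holstein Friesian baseline replicate 3 (-0.46, adjusted p = 0.0213) or Holstein Friesian larva replicate 3 (-0.45, adjusted p = 0.0184). The transcription factors LEF1 and TCF7, which hold T cells in a naive or memory state, had -0.20 (95% interval -0.39 to 0.0019) and -0.12 (95% interval -0.34 to 0.11). The 2 probes of TCF7 gave -0.29 and 0.06 and correlated at 0.41. The homing receptor CCR7 had 0.07 (95% interval -0.21 to 0.35), and the interleukin 7 receptor IL7R -0.13 (95% interval -0.40 to 0.13).

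With adult ticks, 0 of the 30 genes passed against baseline in the mean over breeds, where 0.0346% of all features did, and 8 were lower at an unadjusted p under 0.05, against 5.78% of all features. The median difference was -0.14 and 24 genes were below 0. CD8A came nearest, as given above, and passed at -0.67 to -0.70 in 4 of 9 other settings and when any 1 of 8 arrays was left out, at -0.72 to -0.64. Without the pair of larva arrays nearer another breed 0 genes passed. After CD8A by unadjusted p came CD8B (-0.45), ZAP70 (-0.33), LCK (-0.28), CD2 (-0.31) and CD7 (-0.44), with adjusted p between 0.245 and 0.277. The LCK value averages unlike probes: a single probe gave 0.008, while its others gave -0.38 to -0.325.

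Set against larvae, adults had 2 T cell genes higher, LCP2 and SH2D1A, where 0.169% of all features passed as higher. LCP2 rose by 0.42 (SE 0.09, adjusted p = 0.0458) and SH2D1A by 0.63 (SE 0.12, adjusted p = 0.045), both higher in all 3 breeds. The median over the 30 genes was 0.12 and 23 were above 0. The larva arrays enter both this comparison and the one with baseline. Both calls were close to the threshold: LCP2 lost its call without any 1 of 22 of the 27 arrays, with values of 0.36 to 0.47, and SH2D1A without any 1 of 16, with values of 0.57 to 0.69. Without the pair of larva arrays nearer another breed LCP2 passed and SH2D1A did not (0.63, adjusted p = 0.0539). CD3G and CD3E had 0.33 and 0.27 (adjusted p = 0.159 and 0.264).

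Within breeds, the calls came from Bonsmara, whose baseline nodes held the highest values: 20 of the 30 genes had their highest group mean there, and 14 had their lowest in Brahman larva nodes. In Bonsmara 5 genes fell with larvae against baseline, where 0.608% of all features passed as lower. CD8A averaged -0.21 ± 0.07 with larvae and 0.96 ± 0.41 at baseline (SD, n = 3 arrays each) and fell by 1.17 (limma adjusted p = 0.00921). SH2D1A averaged -0.43 ± 0.29 with larvae against 0.70 ± 0.36 at baseline and fell by 1.14 (adjusted p = 0.00857). GIMAP8 averaged -0.14 ± 0.23 with larvae against 0.89 ± 0.27 at baseline and fell by 1.04 (adjusted p = 0.00415). PRKCQ and LCP2 fell by 0.93 and 0.63 (adjusted p = 0.00905 and 0.0449). In 20 genes the Bonsmara larva and baseline arrays did not overlap, 19 of them lower with larvae, where 26.6% of all features did not overlap.

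Single arrays decided part of these calls. Without Bonsmara baseline replicate 2, where CD8A read 1.42 and SH2D1A 1.07, 2 genes passed, and CD8A and SH2D1A stood at -0.94 and -0.95 (adjusted p = 0.0536 and 0.0514). Without Bonsmara larva replicate 2, 3 genes passed, and PRKCQ stood at -0.79 (adjusted p = 0.0589). The number of features that passed in fits with 1 array left out is not given here. Whether these gene counts moved with the whole array is therefore not shown. LCP2 lost its call in 15 of 27 such omissions. In a fit of the Bonsmara larva and baseline arrays alone 0 genes passed, and 0 features of the whole array. Without the pair of larva arrays nearer another breed, 6 genes fell, where 277 features passed in either direction in place of 322.

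Brahman and Holstein Friesian nodes gave 0 calls with larvae against baseline, where 0% and 0.00346% of all features passed, yet their median differences of -0.26 and -0.23 stood beside -0.33 in Bonsmara, each with 23 of 30 genes below 0. At an unadjusted p under 0.05, 12 genes were lower in Brahman and 6 in Holstein Friesian nodes, against 5.91% and 3.2% of all features. Without Brahman baseline replicate 3, LCK fell by 0.64 and TRAT1 fell by 1.18 with larvae in Brahman nodes (adjusted p = 0.0431 and 0.0354). With adults against baseline 0 genes passed in any breed, where 0.0311% of features passed in Bonsmara and 0% in Brahman and in Holstein Friesian nodes, and the medians were -0.21 in Bonsmara, -0.15 in Brahman and -0.03 in Holstein Friesian nodes. In the same order 6, 5 and 1 genes were lower at an unadjusted p under 0.05, against 6.59%, 6.81% and 2.15% of all features. CD8A stood at -1.19 in Bonsmara (adjusted p = 0.0432) without Bonsmara baseline replicate 3, and LCK at -0.65 in Brahman (adjusted p = 0.037) without Brahman baseline replicate 3. Each was the only omission of 1 array that gave a gene in its comparison. With adults against larvae 0 passed in any breed, where 0.0484%, 0.00346% and 0.00346% of features did in Bonsmara, Brahman and Holstein Friesian nodes, and 5, 3 and 2 genes were higher at an unadjusted p under 0.05, against 5.18%, 4.11% and 2.78% of features. Without the pair of larva arrays nearer another breed, each of these comparisons again gave 0 genes, and the Holstein Friesian median with larvae was -0.31, with 24 genes below 0, where 11 features passed in place of 1.

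Whether the breeds differed in their responses was tested directly, and no gene passed. The F test of breed by stage gave 0 of the 30 genes, as it did 0 of all features, with a lowest adjusted p of 0.563 (GIMAP8), and it gave 0 of both without the pair of larva arrays nearer another breed. At an unadjusted p under 0.05 it held GIMAP8, LEF1 and PRKCQ, 3 of 30, against 6.99% of all features. The nearest single contrast was the larva response of GIMAP8, which differed by -1.08 between Bonsmara and Holstein Friesian nodes (SE 0.25, adjusted p = 0.206). A call in Bonsmara and none in another breed is thus not a shown difference between them.

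**Figure D4:**
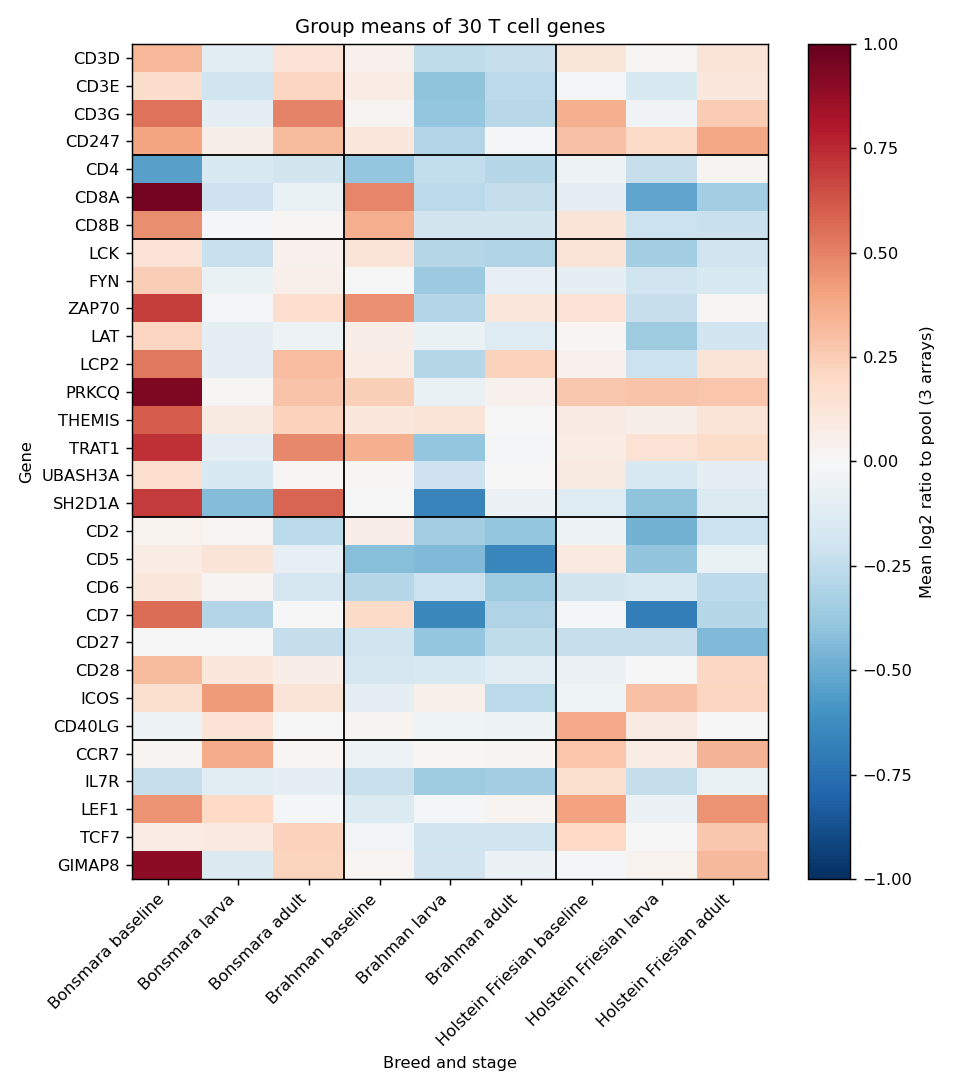
Mean log2 ratio to the pool (3 arrays) of the 30 T cell genes, ordered by role down the page, in the 9 groups ordered by breed and then stage. The Bonsmara baseline column holds the highest value of 20 genes, led by CD8A at 0.96, and the Brahman larva column the lowest of 14.

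Breeds were also compared at each stage. At baseline 2 genes were higher in Bonsmara than in Holstein Friesian nodes, where 0.194% of all features were higher. CD8A averaged 0.96 ± 0.41 in Bonsmara and -0.10 ± 0.14 in Holstein Friesian nodes (SD, n = 3 arrays each), a difference of 1.06 (SE 0.22, limma adjusted p = 0.0391). GIMAP8 differed by 0.90 (SE 0.18, adjusted p = 0.0279), with every Bonsmara array above every Holstein Friesian array. GIMAP8 was also lower in Brahman than in Bonsmara nodes, 0.02 ± 0.06 against 0.89 ± 0.27, by -0.88 (limma adjusted p = 0.0441), where 0.0795% of features were lower. The CD8A call was lost without any 1 of 12 of the 27 arrays, the first GIMAP8 call without any 1 of 4, and the second without any 1 of 17, and all 3 were lost in fits of the compared groups alone. Without the pair of larva arrays nearer another breed both GIMAP8 calls held and CD8A did not pass (adjusted p = 0.0574). The Bonsmara baseline arrays enter these comparisons and the stage comparisons of that breed.

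Brahman and Holstein Friesian nodes differed in 0 genes at baseline, where 0.0207% of features passed, and at an unadjusted p under 0.05 there were 1 higher and 2 lower genes, against 6.4% and 3.82% of features. With larvae and with adults 0 genes differed between any pair of breeds, where 0 to 1 feature passed per pair (at most 0.00346%). That share changed with the larva arrays nearer another breed: without them 135 features passed for Brahman against Holstein Friesian and 23 for Bonsmara against Holstein Friesian with larvae, and 51 for Brahman against Holstein Friesian with adults. With array weights 466 features passed in the last of these. Of the 30 T cell genes 0 passed in any of these fits, nor at baseline for Brahman against Holstein Friesian without the pair, where 32 features passed in place of 6. At an unadjusted p under 0.05 the larva arrays gave 2 genes for Brahman against Holstein Friesian, 2 for Bonsmara against Holstein Friesian and 3 for Brahman against Bonsmara, where 5.9%, 4.63% and 5.48% of features did. The adult arrays gave 6, 2 and 6 genes for the same pairs, where 10.1%, 6.71% and 5.65% of features did. The Brahman group mean was below the Bonsmara one in 26 of 30 genes at baseline, 28 with larvae and 28 with adults. The median differences were -0.27, -0.24 and -0.21, against 0.0072, 0.0067 and 0.0047 over all features. Without the larva pair it was below in 26 genes with larvae, with a median of -0.22, and the other 2 stages kept their counts. These counts are a description, since the genes vary together in part and each group holds 3 arrays. Brahman larva replicate 1 alone read below 0 in all 30 genes. With adults the arrays of Brahman and Bonsmara did not overlap in 12 genes, all lower in Brahman, where 15.5% of all features did not overlap. At baseline 11 genes were lower in Brahman than in Bonsmara nodes at an unadjusted p under 0.05, against 6.76% of all features.

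Across arrays the T cell genes varied together only in part. With the 9 group means subtracted, so that the stage and breed differences play no role, 359 of 435 gene pairs correlated above 0 over the 27 arrays, with a median of 0.29. These arrays share the pool, and genes share an array's total, so the figures are descriptions. The closest pairs were CD2 with CD6 at 0.84, CD8A with CD8B at 0.83, CD5 with CD6 at 0.81, CD4 with TCF7 at 0.78 and CD6 with CD27 at 0.77. CD27 and ICOS ran the most opposite, at -0.57. Against the mean of the other genes CD2 stood highest, at 0.81, and ZAP70 lowest, at -0.02. In all, 14 of the 30 genes exceeded 0.5, against 3.36% of the 14465 named genes outside the list, each set against the mean of the 30.

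The genes outside the list nearest to that mean were ITGB7, the beta 7 integrin, at 0.84, the T cell transcription factor GATA3 at 0.83, the chromatin organiser SATB1 at 0.80, the adaptor SLA2 at 0.79 and TCRA, the T cell receptor alpha chain, at 0.78. Their larva minus baseline differences were -0.04 for ITGB7, -0.27 for GATA3, -0.0049 for SATB1, -0.24 for SLA2 and -0.09 for TCRA (SE 0.07, adjusted p = 0.599), and none of the 5 passed.

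Of 60 further genes of T cell signalling, adhesion and regulation, 47 were measured. With larvae against baseline 5 fell and 0 rose: the kinase TXK (-0.59), the adaptor LAX1 (-0.56), the receptor CD96 (-0.65), the GTPase GIMAP6 (-0.40) and ITGAL (-0.37), the alpha chain of the integrin LFA-1 (adjusted p = 0.00944, 0.00247, 0.03, 0.0288 and 0.00351). The median difference of all 47 was -0.07, against -0.28 for the 30 genes, and 0.529% of all features passed as lower. With adults against baseline 0 of the 47 passed, and with adults against larvae TXK rose by 0.62 (adjusted p = 0.0435).

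Markers of other cells moved in the same comparison. All 12 cytotoxic and natural killer genes were below 0 with larvae against baseline and 6 fell, where 0.529% of all features passed as lower. KLRK1, an activating receptor, fell by 1.15 (adjusted p = 0.000112), and EOMES, a transcription factor, fell by 1.05 (adjusted p = 0.000313). The list's median per array ran from -0.71 to 0.01 with larvae, against -0.34 to 0.81 at baseline. Natural killer cells can carry CD7, SH2D1A, ZAP70 and CD247 too, and their part in the results was not tested. Of the gamma delta T cell genes 5 of 14 were measured and 1 fell: TRGC6, a receptor gamma constant gene, stood at -0.92 (adjusted p = 0.0197). Gamma delta T cells carry the CD3 chains and are plentiful in cattle.

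Stroma and plasma cell genes went the opposite way and macrophage genes the same way. For the counts that follow, 1.21% of all features passed in either direction and 0.529% as lower. Of 12 stroma and matrix genes 7 rose with larvae against baseline, with a median difference of 0.65, and the median per array ran from -0.25 to 1.12 with larvae against -0.66 to -0.38 at baseline. Of 8 plasma cell genes 5 rose (median 0.99, per array -0.46 to 0.92 with larvae against -1.03 to 0.25 at baseline), and of 7 measured B cell genes 0 changed (median 0.25, per array -0.45 to 0.53 with larvae against -0.69 to 0.32 at baseline). Of 10 macrophage genes 2 fell, SIGLEC1 and MERTK, with a median of -0.31 and 9 below 0, and the median per array ran from -0.83 to -0.13 with larvae against -0.61 to 0.28 at baseline. For the 30 T cell genes the same median ran from -0.53 to 0.04 with larvae against -0.09 to 0.38 at baseline. No marker can be said to be absent, since the values are ratios, and the part of these lists in the T cell results was not tested.

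**Figure D5:**
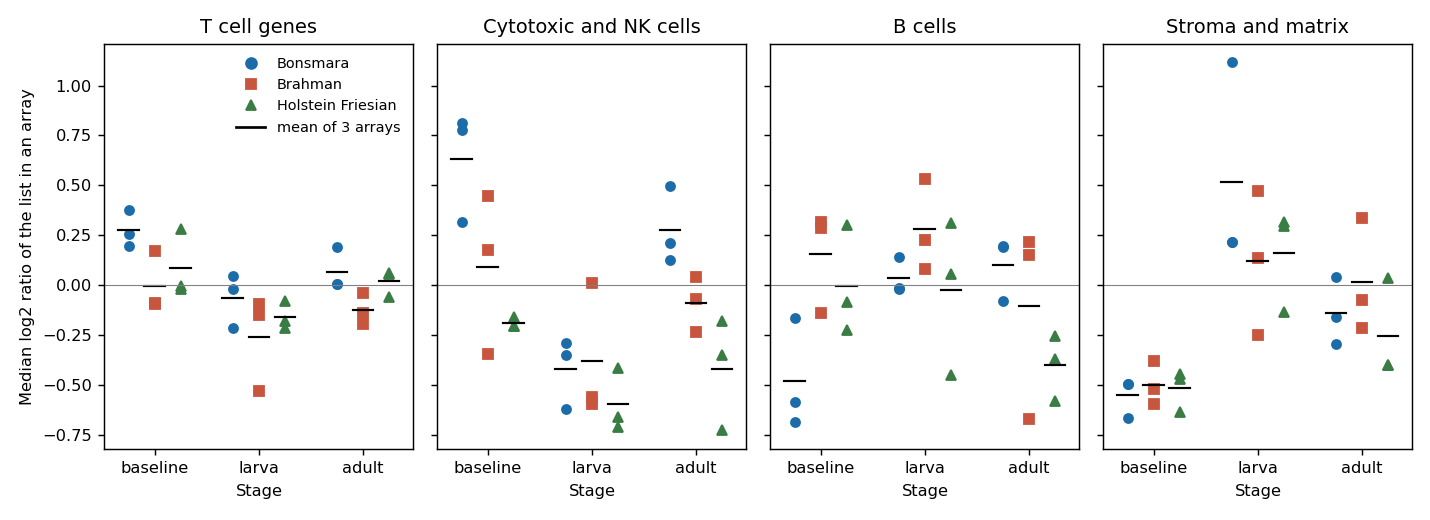
Median log2 ratio within each array of the 30 T cell genes and of the cytotoxic and natural killer, B cell, and stroma and matrix lists, by stage and breed, with bars for the means of 3 arrays. In every breed the T cell and cytotoxic bars are lower with larvae than at baseline and the stroma bars higher, while the B cell points of the stages overlap.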

How the data were processed

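Total RNA of 27 lymph node biopsies was measured on 2-colour arrays, Cy5 for the sample and Cy3 for a common pool, per the labels. The deposited values are log2 ratios (base and direction likely) that the authors had already normalized; limma is named in the submitters' processing notes. Which limma version, background correction and genome build were used is not given in the sources used here. Signal over background is not known from ratios, and the number of arrays limits the precision.

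Of 45220 probes, 30788 carried 1 gene symbol in the platform table, 0 several and 14432 none; 20526 were named through an accession of the RefSeq ARS-UCD2.0 gene table, 9844 through an unchanged symbol, 369 through a synonym, and 49 kept an unmatched symbol. Probes of a gene were averaged and unnamed probes kept, which gave 28927 features. limma 3.58.1 (R 4.3.3) was fitted with 9 group means (18 residual and 3.86 prior degrees of freedom), and 21 contrasts and a breed by stage F test were read at an adjusted p of 0.05, with Benjamini-Hochberg adjustment over all features of each. P-values measure the spread between the biological replicates of the labels. The code was tested on simulated data.

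The members and all lists were chosen with earlier results of these data known. All 30 genes were to be named, with every array's value for those that passed in any comparison and for CD3E, CD4 and CD8A; outside them, genes of the T cell pathway list that passed, at most 4 per direction by adjusted p, and the 5 nearest by correlation. The 5th T cell pathway gene, CD96 by adjusted p, was named after its value was seen. Alternatives tried were the compared groups alone, equal interquartile ranges, quantile normalization, probe medians, named features only, array weights, a trended and robust prior, a replicate block, the omission of both larva arrays nearer another breed, and of each array. No sequences or positions are given.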

Additional observations from a re-analysis of the deposited data

How the results depend on the processing

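Each gene that passed was refitted under 9 other settings and with each of 27 arrays left out, in all 648 values for 18 calls, and 0 changed direction. Many of these differences could not move, since leaving out an array outside the compared groups does not alter them. Neither do the compared groups alone, named features only, a trended and robust prior or the replicate block. The calls were also picked for their size, so an unchanged direction is no test of them. CD7, CD8A, SH2D1A, ZAP70 and LCP2 kept their call with larvae against baseline under all of these settings and omissions. That comparison held 6 to 9 genes under 8 of the other settings, 11 without both larva arrays nearer another breed, and 6 to 10 with 1 array left out. Over the whole array its count of features was 351. It was 189 in a fit of the compared groups alone, 152 with arrays scaled to the same interquartile range and 480 without both larva arrays. In Bonsmara larvae against baseline it was 322 features, and 0, 182 and 1660 in the compared groups alone, at equal interquartile ranges and with array weights. With larvae, Brahman against Holstein Friesian gave 0 features and 135 without both larva arrays, Bonsmara against Holstein Friesian 0 and 23, and with adults Brahman against Holstein Friesian 0, 51 without both and 466 with array weights.

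With adults against baseline 1 gene, CD8A, passed in place of 0 in the compared groups alone, with named features only, with array weights and with a trended and robust prior, and 0 to 1 with 1 array left out. In the order of these settings 24, 23, 21 and 13 features passed, in place of 10. With adults against larvae, in place of 2 genes, 0 passed in the compared groups alone, 1 with probe medians, 1 with a trended and robust prior, 1 without both larva arrays, and 0 to 2 with 1 array left out. In the order of these settings 1, 63, 21 and 50 features passed, in place of 67. In Bonsmara larvae against baseline, in place of 5, 0 passed in the compared groups alone, 3 at equal interquartile ranges, 8 with array weights, and 2 to 7 with 1 array left out. In Bonsmara adults against baseline, 3 passed with array weights (CD8A, GIMAP8 and PRKCQ), where 137 features passed in place of 9, and 0 to 1 with 1 array left out. In Bonsmara adults against larvae 1 passed at equal interquartile ranges, 2 after quantile normalization and 3 with array weights. Over the whole array 106, 428 and 1291 of 28927 features passed in these fits, in place of 14. Brahman larvae against baseline gave 0 to 2 and Brahman adults against baseline 0 to 1 with 1 array left out. At baseline, Bonsmara against Holstein Friesian gave 0 in the compared groups alone, 0 at equal interquartile ranges, 0 after quantile normalization, 1 without both larva arrays and 0 to 2 with 1 array left out. In the order of these settings 2, 18, 35 and 69 features passed, in place of 65. Brahman against Bonsmara gave 0 in the compared groups alone, at equal interquartile ranges, after quantile normalization and with array weights, and 0 to 1 with 1 array left out. The cause of these changes was not tested; a fit of the compared groups alone has fewer arrays.

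CD8A minus CD4 differed by -0.97 to -0.80 (larva minus baseline), -0.97 to -0.75 (adult minus baseline) and -0.067 to 0.15 (adult minus larva) with 1 array left out, and the last turned to -0.032 at equal interquartile ranges and -0.022 after quantile normalization. CD8B minus CD4 differed by -0.70 to -0.43, -0.75 to -0.52 and -0.20 to 0.068 in the same order, and its larva minus baseline value was -0.41 at equal interquartile ranges and -0.40 after quantile normalization, past the threshold in neither.

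The labels number the replicates of each group. Same-numbered arrays of a breed had a median correlation of deviations of 0.04 (27 pairs, 7 over 0.1). Differently numbered arrays of a breed had -0.015 (54 pairs, 6 over 0.1). This small difference does not settle whether the numbers mark the same animals, and they were not taken as pairs. With the replicate block 7 genes fell with larvae against baseline, 0 passed with adults against larvae, 6 in Bonsmara larvae against baseline, 1 at baseline in Bonsmara against Holstein Friesian and 0 in Brahman against Bonsmara. In the order given, up to Bonsmara against Holstein Friesian, 301, 6, 279 and 63 features passed. Those counts were 351, 67, 322 and 65 without a block. CD8A minus CD4, larva minus baseline, stayed at -0.90 in a permutation test with arrays paired by breed and replicate number (adjusted p = 0.0176).

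The deposited ratios do not tell dim probes from bright ones. With 3 arrays a group, the median standard error of a difference was 0.16 within a breed and 0.09 for a mean over breeds.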
